A study of Mus musculus with 2 samples.

Results

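Gbx2, En1, En2, Otx1, Egr2, Sp8 and Cnpy1 were studied together as genes of the isthmus, the border between midbrain and hindbrain, and of rhombomeres, the segments of the early hindbrain. The 7 genes were chosen by name for these roles, not by a measured value, but with earlier results of these data known. They are 7 of the 55536 genes quantified on GENCODE M21, the newer of the 2 gene annotations in the deposited tables. RNA with a poly(A) tail was sequenced from hindbrain of B6NCrl mouse embryos of mixed sex at embryonic day 12.5. The series holds 1 group of 2 biological replicates, pool 1 from 120 embryos and pool 2 from 88 embryos, with no treatment, mutant or other stage named in the labels. There was therefore no contrast between conditions and no test, and differences between the pools are replicate spread. A pool averages over many embryos and over every region of the dissected tissue, so a gene confined to a narrow stripe is diluted in it.

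In the vertebrate neural tube the border of midbrain and hindbrain forms where Otx genes, expressed in front, meet Gbx2, expressed behind. Cells at this border form the isthmic organiser, which secretes Fgf8 and Wnt1 and keeps En1, En2 and Pax genes active in the tissue that becomes tectum and cerebellum. Further back, Hox genes and segment factors such as Egr2 (also called Krox20) give rhombomeres their identity, and several of these genes take on other roles once the segments have formed.

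The 7 genes spanned a wide range of abundance (TPM, transcript abundance scaled for length and depth). Cnpy1 and Gbx2 were the most abundant, at 46.4 ± 10.2 and 42.2 ± 9.31 TPM (SD, n = 2 pools). En1 at 6.27 ± 0.679 TPM and Sp8 at 6.13 ± 0.870 TPM stood together in the middle. Otx1 at 2.69 ± 0.148 TPM, Egr2 at 1.02 ± 0.205 TPM and En2 at 0.585 ± 0.106 TPM were the low ones. Of the 7 genes, 5 reached 1 TPM or more in both pools, against 29.0% of all genes and 61.8% of protein-coding genes. Cnpy1 was above 82.6% of protein-coding genes by mean TPM, Gbx2 above 81.0%, En1 above 51.5%, Sp8 above 51.2%, Otx1 above 43.9%, Egr2 above 37.2% and En2 above 34.1%. The median of the 22028 protein-coding genes was 5.46 TPM, so En1 and Sp8 lay close to it.

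Neighbours in this order were compared by whether their TPM ranges over the pools overlapped. The ranges were apart for 4 of the 6 neighbouring pairs. They overlapped for Cnpy1 and Gbx2, whose TPM ratio was 1.10 in both pools, and for En1 and Sp8, whose ratio was 1.05 in pool 1 and 1.00 in pool 2. The widest step lay between Gbx2 and En1, with a TPM ratio of 6.16 in pool 1 and 7.23 in pool 2. Sp8 exceeded Otx1 by 1.97 times in pool 1 and 2.61 times in pool 2, and Otx1 exceeded Egr2 by 3.18 and 2.21 times in the same pools. Egr2 exceeded En2 by 1.73 times in pool 1 and 1.77 times in pool 2.

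**Figure D1:**
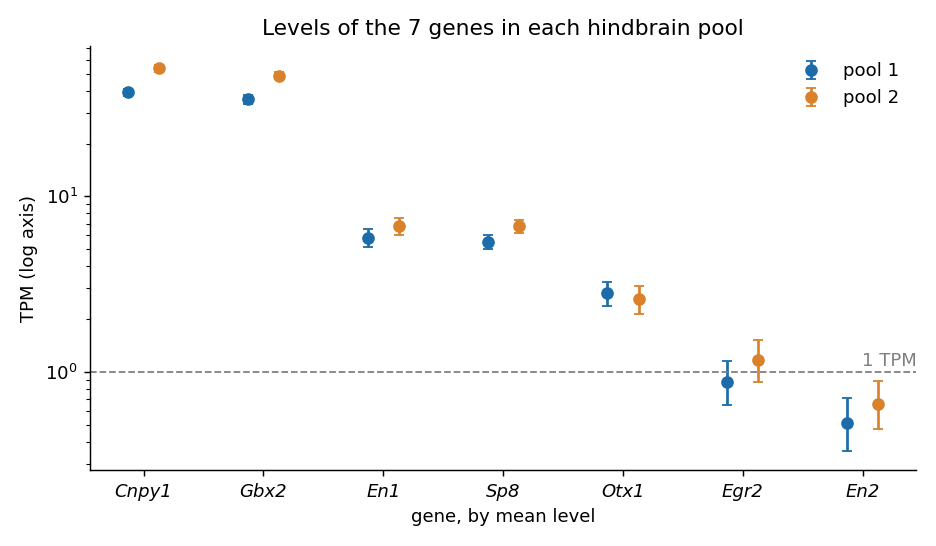
TPM on a log axis of the 7 genes in pool 1 (blue) and pool 2 (orange), with points for the deposited value and bars for the 95% Poisson interval of its expected count; the dashed line marks 1 TPM. Cnpy1 and Gbx2 lie between 35.67 and 53.62 TPM, En1 and Sp8 between 5.52 and 6.75 TPM, Otx1 between 2.59 and 2.80 TPM, Egr2 crosses the line and En2 is under it in both pools.

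Gbx2 (ENSMUSG00000034486.8, mm10 chr1:89927956-89931179, minus strand) encodes the homeodomain factor that sets the anterior limit of the hindbrain. It had 35.67 TPM in pool 1 and 48.83 TPM in pool 2, from 1310.2 and 1710.71 expected counts in the same pools. The 95% counting intervals, 33.8 to 37.6 TPM in pool 1 and 46.6 to 51.2 TPM in pool 2, did not overlap. Its paralogue Gbx1, a homeodomain gene known from dorsal spinal cord and forebrain, had 4.36 TPM in pool 1 and 5.12 TPM in pool 2. Gbx2 thus held 89.1% of the TPM of the pair in pool 1 and 90.5% in pool 2.

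Gbx2 has 2 annotated transcripts. Gbx2-201, the coding transcript, took 78.4% of the gene's TPM in pool 1 and 85.5% in pool 2. Gbx2-202, a retained-intron transcript of 1220 bases, took 21.6% in pool 1 and 14.5% in pool 2. Gbx2-202 has 42 bases outside the exons of Gbx2-201, whereas Gbx2-201 has 957 bases of its own, 947 of them its first exon. On the opposite strand, the noncoding gene D130058E05Rik starts inside the first exon of Gbx2-201 and shares 946 of the 2177 exonic bases of Gbx2. It was given 168.8 expected counts in pool 1 and 209.29 in pool 2.

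The deposited posterior SD of the counts was 9.12 in pool 1 and 9.38 in pool 2 for Gbx2 and the same for D130058E05Rik, whereas it was 0 for the other 6 genes. Gbx2 held 88.6% of the summed counts of the overlapping pair in pool 1 and 89.1% in pool 2. With all of those counts given to Gbx2 its level would be 40.3 TPM in pool 1 and 54.8 TPM in pool 2. No label or file header says whether the reads were counted by strand. An equal SD above 0 for both genes means that counts were divided between them by estimate. Reads of Gbx2 and of its antisense partner thus cannot be told apart with certainty in the shared stretch.

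The promoter window of Gbx2 is shown because it lies inside the antisense gene. It spans 250 bases before and 50 bases after the RefSeq start (GRCm38.p6, chr1:89931127-89931426, minus strand), which is 3 bases from the start of Gbx2-201. Capitals mark the GC box GGGCGG, the core of the site bound by Sp-family factors, or its reverse complement.

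Gbx2: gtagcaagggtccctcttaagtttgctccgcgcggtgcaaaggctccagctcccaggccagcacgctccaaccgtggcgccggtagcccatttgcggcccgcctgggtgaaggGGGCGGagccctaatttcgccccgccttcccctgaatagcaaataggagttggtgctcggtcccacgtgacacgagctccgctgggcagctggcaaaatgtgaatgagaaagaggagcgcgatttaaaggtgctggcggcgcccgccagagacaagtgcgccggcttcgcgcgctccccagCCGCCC

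This window is 64.7% G or C and holds 27 CG dinucleotides. Over all 32817 RefSeq windows of the same length the median was 52.7% G or C and 7 CG dinucleotides, with quartiles of 3 and 20. GGGCGG was found on either strand in 35.6% of all windows. A match to such letters is a description of the sequence and does not show binding.

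Otx1 (ENSMUSG00000005917.15, mm10 chr11:21994764-22002897, minus strand) encodes the homeodomain factor of forebrain and midbrain on the anterior side of the border, which is also expressed in sense organs. It had 2.80 TPM in pool 1 and 2.59 TPM in pool 2, with overlapping counting intervals of 2.38 to 3.27 and 2.15 to 3.09 TPM in the same pools. It was the only one of the 7 genes with more TPM in pool 1. Otx2, its paralogue on the anterior side of the border, which is also expressed in choroid plexus, had 12.22 TPM in pool 1 and 15.57 TPM in pool 2. Crx, a photoreceptor factor and the remaining family gene, had 2 counts in each pool.

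Gbx2 exceeded Otx1 by 12.7 times in pool 1 and 18.9 times in pool 2 on the TPM scale, and exceeded Otx2 by 2.92 times in pool 1 and 3.14 times in pool 2. In bulk tissue, fewer cells that express a gene and less RNA per cell cannot be told apart. Otx2 exceeded Otx1 by 4.36 times in pool 1 and 6.01 times in pool 2. Of 5 choroid plexus markers, 4 were at 1 TPM or more in both pools, and 3 were lower and 2 higher in pool 1. Their summed level was 350.7 TPM in pool 1 and 416.1 TPM in pool 2, most of it from the transthyretin gene Ttr, with 316.35 TPM in pool 1 against 375.47 TPM in pool 2. The part of choroid plexus in the Otx2 level was not tested.

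The Otx1 level depends on a short transcript model in pool 2. Otx1-201, the full coding transcript, held 94.6% of the gene's TPM in pool 1 and 80.7% in pool 2. Otx1-202, a model of 771 bases that the annotation marks as incomplete at its 3′ end, held 0% in pool 1 and 13.1% in pool 2, the second value resting on 4.2 expected counts. Each count of a short model weighs more on the TPM scale, and the gene's effective length was 2823.85 bases in pool 1 and 2581.32 bases in pool 2. Without Otx1-202 the gene's level was 2.80 TPM in pool 1 and 2.25 TPM in pool 2. Its expected counts, 158 in pool 1 and 123 in pool 2, do not carry this length effect.

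En1 (ENSMUSG00000058665.8, mm10 chr1:120602418-120607992, plus strand) and En2 (ENSMUSG00000039095.8, mm10 chr5:28165694-28172166, plus strand) encode the engrailed homeodomain repressors of the midbrain and hindbrain border. En1 is needed for both tectum and cerebellum and also marks V1 inhibitory interneurons of the ventral neural tube, whereas En2 acts later in the patterning of the cerebellum. En1 had 5.79 TPM in pool 1 and 6.75 TPM in pool 2, from 292 and 314 expected counts in the same pools. En2 had 0.51 TPM in pool 1 and 0.66 TPM in pool 2, from 35 and 42 expected counts. The counting intervals overlapped between the pools for both genes, at 5.14 to 6.49 and 6.02 to 7.54 TPM for En1, and at 0.355 to 0.709 and 0.476 to 0.892 TPM for En2, pool 1 given before pool 2.

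En1 exceeded En2 by 11.4 times in pool 1 and 10.2 times in pool 2 on the TPM scale, and held 91.9% of the family's TPM in pool 1 and 91.1% in pool 2. Each of them has 1 annotated transcript, so no division among transcripts enters these levels. The markers of V1 interneurons were all present, with 9 of 9 at 1 TPM or more in both pools, against 61.8% of protein-coding genes. Their summed level was 241.9 TPM in pool 1 and 246.3 TPM in pool 2. Highest among them were the transcription factor genes Foxp1 (67.87 TPM in pool 1 and 67.84 TPM in pool 2), Lhx1 (50.36 and 52.81 TPM), Lhx5 (48.79 and 51.58 TPM) and Foxp2 (37.49 and 35.63 TPM). These genes are also expressed in other neurons of the hindbrain, and the part of V1 cells in the En1 level was not tested.

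The nearest annotated genes of En1 are the gene of the macrophage receptor Marco, 97393 bases away, and the lincRNA 2610027F03Rik, 13747 bases away on the same strand. Marco had no count in either pool, which allows up to 3 counts, and 2610027F03Rik had 3.98 TPM in pool 1 and 6.42 TPM in pool 2. On chromosome 5, En2 and Cnpy1 are neighbours on opposite strands, 28652 bases apart. Cnpy1 exceeded En2 by 76.8 times in pool 1 and 81.2 times in pool 2 on the TPM scale, the widest gap among the 7 genes. On its other side En2 has Insig1, a regulator of cholesterol synthesis, 87031 bases away, with 74.00 TPM in pool 1 and 77.49 TPM in pool 2.

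**Figure D2:**
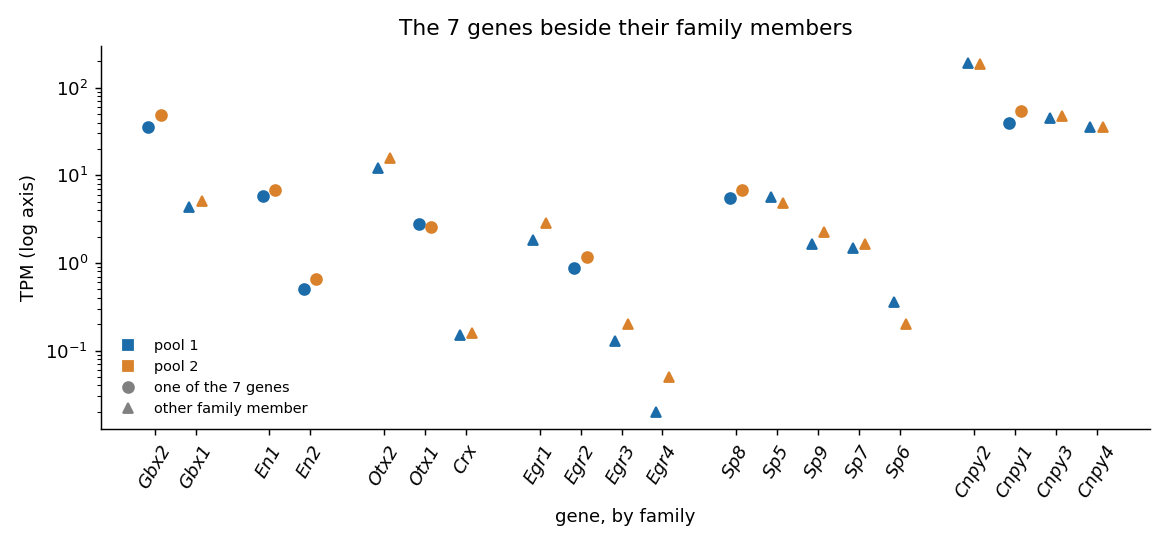
TPM on a log axis in pool 1 (blue) and pool 2 (orange) for the 7 genes (circles) and other members of their families (triangles), grouped by family. Gbx2 and En1 lie above their paralogues, Otx1 lies under Otx2, Egr2 under Egr1, and Cnpy1 under Cnpy2 in both pools.

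Sp8 (ENSMUSG00000048562.7, mm10 chr12:118846329-118852576, plus strand) encodes a zinc finger factor of the Sp family that regulates Fgf8 at the isthmus and is also expressed in forebrain, limb ectoderm and interneuron lineages. It had 5.52 TPM in pool 1 and 6.75 TPM in pool 2, with counting intervals of 5.03 to 6.04 and 6.19 to 7.35 TPM in the same pools. These intervals did not overlap, whereas the authors' deposited intervals, 4.88 to 6.03 TPM in pool 1 and 5.99 to 7.27 TPM in pool 2, did. Sp8-201, the longer coding transcript, held 96.0% of the gene's TPM in pool 1 and 96.7% in pool 2.

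Among the buttonhead-like Sp genes Sp5 to Sp9, Sp8 held 37.5% of the summed TPM in pool 1 and 43.2% in pool 2. Sp5, a Wnt target gene, had 5.70 TPM in pool 1 and 4.83 TPM in pool 2, so that Sp5 was above Sp8 in pool 1 and below it in pool 2. Sp9, the closest relative of Sp8, had 1.66 TPM in pool 1 and 2.23 TPM in pool 2. Sp7, known as osterix in bone, had 1.47 TPM in pool 1 and 1.63 TPM in pool 2, and Sp6 had 0.36 TPM in pool 1 and 0.20 TPM in pool 2. Sp1 to Sp4, which are broadly expressed, averaged 7.09, 15.4, 52.2 and 16.4 TPM, in that order, all above the mean of Sp8.

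Cnpy1 (ENSMUSG00000044681.19, mm10 chr5:28200819-28245806, minus strand) encodes a canopy protein, which in zebrafish is made at the midbrain and hindbrain border and helps the FGF receptor Fgfr1 to mature. It had 39.19 TPM in pool 1 and 53.62 TPM in pool 2, from 1821 and 2274 expected counts in the same pools. The counting intervals, 37.4 to 41.0 TPM in pool 1 and 51.4 to 55.9 TPM in pool 2, did not overlap. The other canopy genes encode proteins of the endoplasmic reticulum expressed in many tissues and differed less between the pools. Cnpy2 had 189.34 TPM in pool 1 and 185.67 TPM in pool 2, Cnpy3 had 45.49 and 47.28 TPM, and Cnpy4 had 35.44 and 35.56 TPM. Cnpy1 was therefore under Cnpy3 in pool 1 and above it in pool 2, and took 12.7% of the family's TPM in pool 1 and 16.6% in pool 2.

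Cnpy1 was the 1 gene of the 5 with 2 or more transcripts whose top transcript held under 60% of its TPM. Among all genes at 1 TPM or more in both pools with 2 or more transcripts, 41.9% were of this kind. Cnpy1-202 took 54.6% in pool 1 and 56.4% in pool 2, and Cnpy1-205 took 39.6% in pool 1 and 37.9% in pool 2. By expected counts the order turned, with 805.63 for Cnpy1-202 and 905.97 for Cnpy1-205 in pool 1, and 1049.31 and 1091.27 in pool 2. Cnpy1-205 is 3018 bases long and Cnpy1-202 1984 bases, and TPM divides by length. The order of the 2 transcripts thus depends on the measure.

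These transcripts begin at different places. Cnpy1-205 starts at the distal end of the gene, and Cnpy1-202 starts 35784 bases downstream of it. The 3 transcripts of the proximal start region held 58.3% of the gene's TPM in pool 1 and 58.9% in pool 2, and the distal transcript the 39.6% and 37.9% above. By counts the shares were 48.3% proximal and 49.8% distal in pool 1, and 48.9% proximal and 48.0% distal in pool 2. Cnpy1-203, which starts between them, held 2.07% of the TPM in pool 1 and 3.23% in pool 2. Of the 1729 bases found only in Cnpy1-205, 99 are its first exon and 1630 belong to its longer last exon, while Cnpy1-202 has no base of its own. Most of the sequence that sets Cnpy1-205 apart is thus at its 3′ end and not at its start, and the shares are estimates made by the authors' program.

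**Figure D3:**
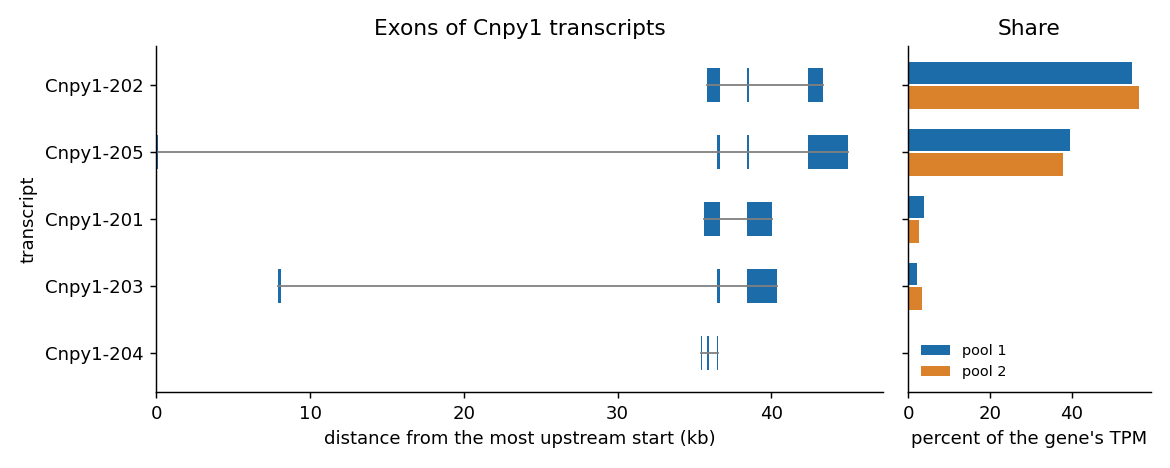
Left, exons (boxes) and introns (lines) of the 5 annotated Cnpy1 transcripts by distance in kilobases from the most upstream start, read in the direction of transcription. Right, each transcript's percent of the gene's TPM in pool 1 (blue) and pool 2 (orange): Cnpy1-202 holds 54.6% and 56.4%, Cnpy1-205 39.6% and 37.9%, and the other 3 together the rest.

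The windows at both starts are shown because the transcripts divide between them. The distal one lies at GRCm38.p6 chr5:28245739-28246038 on the minus strand, with the RefSeq start 18 bases inside the first exon of Cnpy1-205. The proximal one lies at chr5:28210119-28210418 on the same strand, at the start of Cnpy1-201 and 146 bases before that of Cnpy1-202. The RefSeq starts are 35620 bases apart. Capitals again mark GGGCGG.

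Cnpy1 distal: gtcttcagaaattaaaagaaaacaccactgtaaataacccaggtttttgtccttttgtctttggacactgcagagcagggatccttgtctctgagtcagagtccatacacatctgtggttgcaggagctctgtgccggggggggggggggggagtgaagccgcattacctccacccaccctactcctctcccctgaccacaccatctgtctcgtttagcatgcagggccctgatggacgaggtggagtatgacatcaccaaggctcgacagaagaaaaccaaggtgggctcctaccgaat

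Cnpy1 proximal: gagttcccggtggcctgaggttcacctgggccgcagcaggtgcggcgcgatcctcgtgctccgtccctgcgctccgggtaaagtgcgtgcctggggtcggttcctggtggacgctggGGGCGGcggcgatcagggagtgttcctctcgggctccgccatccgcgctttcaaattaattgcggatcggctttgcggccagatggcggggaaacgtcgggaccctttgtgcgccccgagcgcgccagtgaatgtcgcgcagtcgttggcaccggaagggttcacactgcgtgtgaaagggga

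The distal window is 53.0% G or C with 6 CG dinucleotides, near the median of all windows. The proximal window is 66.3% G or C with 34 CG dinucleotides, above the upper quartile of 20. It holds 1 GC box, beginning 133 bases before the start, and the distal window holds none. Neither the TATA box core TATAAA (13.6% of all windows, both strands) nor the bicoid-type homeodomain site TAATCC (7.06%), the kind of site Otx factors bind, was found in the distal or the proximal window, nor was the homeodomain core TAATTA (5.3%). RefSeq windows were matched for 5 of the 7 genes, 12 windows in all, of which 5 held the GC box and 1 each held the TATA box core, the homeodomain core and the bicoid-type site.

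Egr2 (ENSMUSG00000037868.15, mm10 chr10:67535475-67542188, plus strand) encodes the zinc finger factor of rhombomeres 3 and 5, which later acts in boundary cap and Schwann cells of cranial nerves and is also an immediate early gene. It had 0.88 TPM in pool 1 and 1.17 TPM in pool 2, on either side of 1 TPM, from 49 and 53 expected counts in the same pools. The counting intervals of 0.651 to 1.16 TPM in pool 1 and 0.876 to 1.53 TPM in pool 2 overlapped. The authors' deposited intervals were wider and higher, 0.995 to 2.66 TPM in pool 1 and 1.20 to 2.84 TPM in pool 2, and lay wholly above the deposited TPM in both pools. Egr2 was the only one of the 7 genes for which this was so.

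As with Otx1, a short model weighed on the level in pool 2. Egr2-201 held 96.6% of the gene's TPM in pool 1 and 78.6% in pool 2, and Egr2-205, a model of 773 bases marked as incomplete at its 3′ end, held 0% in pool 1 and 17.9% in pool 2 from 2.61 expected counts. Without Egr2-205 the level was 0.88 TPM in pool 1 and 0.96 TPM in pool 2, so that the gene was then under 1 TPM in both. Egr1, its immediate early paralogue, had 1.81 TPM in pool 1 and 2.84 TPM in pool 2, while Egr3 had 0.13 and 0.20 TPM and Egr4 0.02 and 0.05 TPM in the same pools. Egr2 held 31.0% of the TPM of the 4 Egr genes in pool 1 and 27.5% in pool 2.

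Markers of Schwann precursors and boundary caps, cells in which Egr2 can also be expressed, were present in both pools. Of 7 markers, 6 were at 1 TPM or more in both pools, and their summed level was 73.40 TPM in pool 1 and 68.04 TPM in pool 2. Among the higher ones were the neurotrophin receptor gene Ngfr (29.88 TPM in pool 1 and 31.72 TPM in pool 2), Sox10, a neural crest factor gene (15.11 and 9.53 TPM) and the neuregulin receptor gene Erbb3 (9.07 and 7.54 TPM). The boundary cap marker Prss56, named after its values were seen, had 7.19 TPM in pool 1 and 2.74 TPM in pool 2, opposite in direction to Egr2. Of 7 immediate early genes, Egr1 among them, 6 were at 1 TPM or more in both pools, and the median of the 7 was 2.33 TPM. Jun (54.72 TPM in pool 1 and 66.02 TPM in pool 2) and Ier2 (48.37 and 49.73 TPM) were highest, and Fosb (0.03 and 0.08 TPM) was lowest. The parts of these sources in the Egr2 level were not tested.

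**Figure D4:**
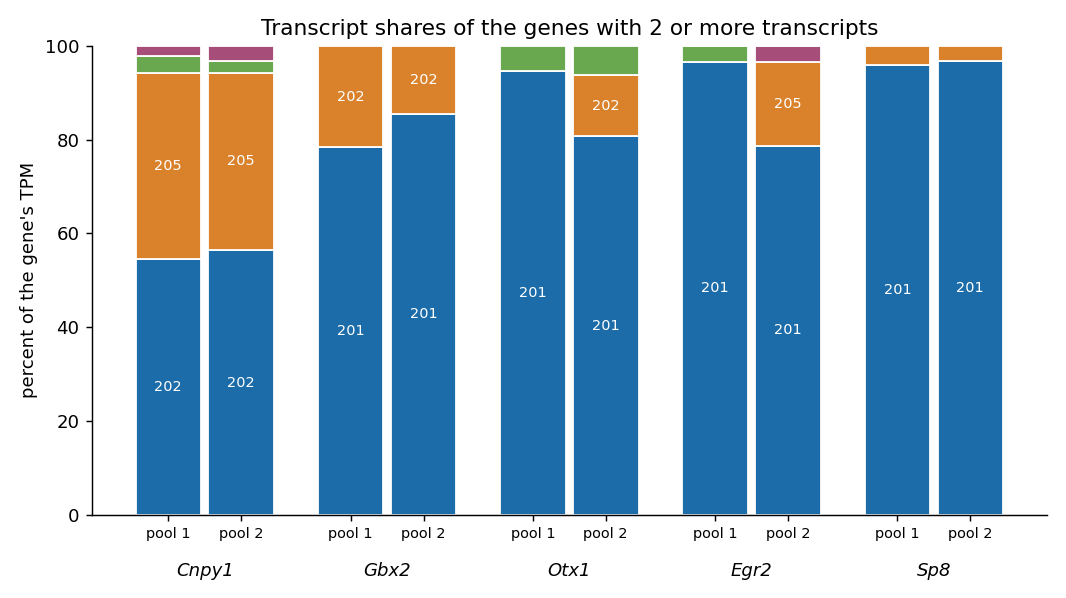
Percent of the gene's TPM held by each transcript in pool 1 (left bar) and pool 2 (right bar) for the 5 genes with 2 or more transcripts, numbered by transcript, with small segments unnumbered and colours set separately for each gene. Sp8 is almost all Sp8-201 (96.0% and 96.7%), Cnpy1 divides between Cnpy1-202 and Cnpy1-205, and the short models Otx1-202 (13.1%) and Egr2-205 (17.9%) appear in pool 2 only.

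By TPM, 6 of the 7 genes were lower in pool 1 than in pool 2, where 52.8% of all genes with 50 or more mean counts were lower. Of the 6 genes with 50 or more mean counts, all but En2, none differed by 1.5-fold or more between the pools in counts scaled by the trimmed mean of M values (TMM), against 3.42% of all such genes. By the same scaled counts 5 of these 6 genes were lower in pool 1, all but Otx1, against 50.6% of all such genes. Gbx2 had a ratio of pool 1 over pool 2 of 0.711 (95% counting interval 0.661 to 0.765) and Cnpy1 of 0.744 (0.699 to 0.791). Sp8 had 0.820 (0.722 to 0.930), so that the interval lay under 1 for these 3 genes. It included 1 for En1 at 0.864 (0.734 to 1.02), Egr2 at 0.860 (0.570 to 1.29), Otx1 at 1.19 (0.936 to 1.52) and En2 at 0.776 (0.480 to 1.24). Gbx2 and Cnpy1 were past 1.3-fold lower in pool 1, a limit set after their values were seen, as were 4.29% of all genes tested. These intervals cover counting error only.

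The direction depended on the scaling for 3 of the genes. Scaled to the spike-in RNAs, which took 3.31% of the counts in pool 1 and 4.25% in pool 2, the median log2 ratio of all genes moved to 0.37, and only 4.42% of genes were then lower in pool 1. On that scale the log2 ratio of pool 1 over pool 2 was -0.12 for Gbx2 and -0.05 for Cnpy1, 0.00 for En2, and above 0 for En1 (0.16), Egr2 (0.15), Sp8 (0.09) and Otx1 (0.63). With TMM scaling it was -0.49 for Gbx2, -0.43 for Cnpy1, -0.37 for En2, -0.29 for Sp8, -0.22 for Egr2, -0.21 for En1 and 0.25 for Otx1. Spike-in scaling raises every log2 ratio by the same shift, so the directions given by TPM for other genes and lists hold only relative to the bulk of genes.

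**Figure D5:**
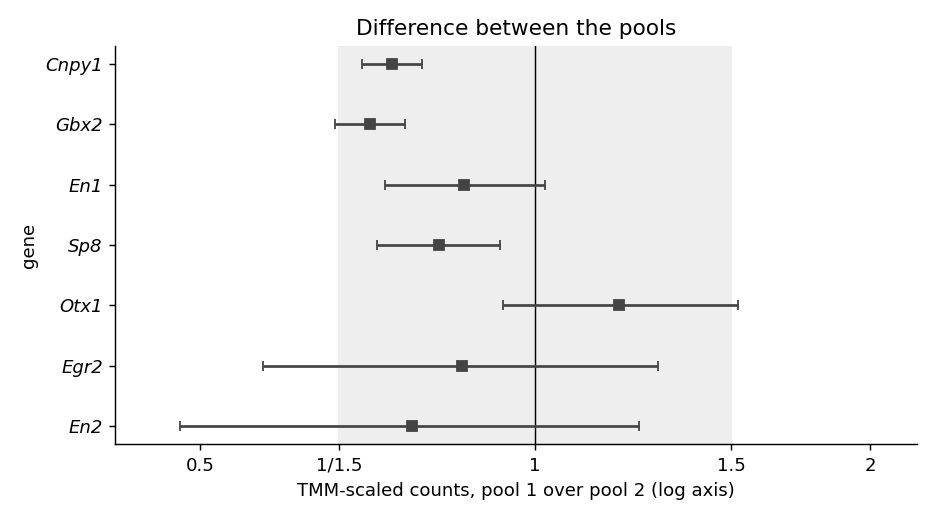
Ratio of TMM-scaled counts, pool 1 over pool 2, on a log axis for the 7 genes in order of mean level, with bars for the 95% counting interval and grey for the band within 1.5-fold. Gbx2 at 0.711 and Cnpy1 at 0.744 are lowest with narrow intervals, Otx1 at 1.19 is the only one above 1 on this scale (with spike-in scaling En1, Egr2 and Sp8 are above 1 too), and the intervals of En1, Egr2, Otx1 and En2 cross 1.

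Markers of tissues at the edges of the dissection also differed between the pools. All 6 skeletal muscle markers were lower in pool 1, with a summed level of 33.99 TPM in pool 1 and 169.3 TPM in pool 2, led by Myl1 (8.36 and 40.52 TPM) and Acta1 (7.58 and 36.42 TPM). All 6 markers of mesenchyme and meninges were also lower in pool 1, summing to 911.3 TPM in pool 1 and 1197 TPM in pool 2, with the collagen gene Col3a1 highest (417.03 and 562.84 TPM). Of 6 surface epithelium markers, 5 were higher in pool 1, and their sum was 105.8 TPM in pool 1 and 70.39 TPM in pool 2, led by Epcam (38.77 and 19.40 TPM). The hindbrain markers, most of them Hox genes of the anterior groups, were at 1 TPM or more in both pools for 8 of 8, and all 8 were lower in pool 1, as Gbx2 and Cnpy1 were. Their summed level was 215.4 TPM in pool 1 and 267.5 TPM in pool 2, and the part of tissue composition in the differences of the 7 genes was not tested.

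The other genes listed for the isthmic organiser were all detected. Of 16 signals, transcription factors and FGF feedback genes, 16 were at 1 TPM or more in both pools, against 61.8% of protein-coding genes. Their median was 6.97 TPM beside 6.13 TPM for the 7 genes. The highest were Fgf15, an FGF ligand (51.68 TPM in pool 1 and 47.62 TPM in pool 2), Spry2, an FGF antagonist gene (27.55 and 35.84 TPM), the FGF target phosphatase gene Dusp6 (29.67 and 30.40 TPM) and the paired box gene Pax8 (20.99 and 29.93 TPM). Fgf8, the organiser signal itself and named here for that role, had 2.42 TPM in pool 1 and 2.26 TPM in pool 2. These levels rest on 46 and 32 expected counts in the same pools. The part of isthmus cells in the levels of the 16 genes was not tested. Of these 16 genes, 9 were lower in pool 1 and 7 higher, so the group had no common direction, and its median log2 ratio of -0.03 was smaller in size than that of the 7 genes at -0.29.

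Of 16 other rhombomere identity genes, 14 were at 1 TPM or more in both pools, with a median of 14.7 TPM. The highest were the ephrin and Eph receptor genes that keep rhombomere cells apart, Efnb3 (82.30 TPM in pool 1 and 73.42 TPM in pool 2), Epha7 (66.99 and 65.89 TPM) and Efnb2 (47.60 and 49.66 TPM), and the Hox gene Hoxb2 (45.07 and 56.72 TPM), a target of Egr2 in rhombomeres 3 and 5. The Egr2 level of 1.02 TPM was below the median of the rhombomere list.

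Genes of the cerebellar primordium and rhombic lip, the region that the isthmus and Gbx2 help to place, were at 1 TPM or more in both pools for 10 of 10, with a median of 11.8 TPM. The highest were the paired box gene Pax3 (29.03 TPM in pool 1 and 25.12 TPM in pool 2), Lhx9 (17.60 and 19.80 TPM), Pax6 (13.88 and 15.39 TPM) and Atoh1, the granule cell lineage factor (14.14 and 13.56 TPM). By TPM, 7 of the 10 genes were higher in pool 1, opposite to Gbx2, Cnpy1 and Sp8, and 3 were lower, Lhx9 and Pax6 among them. The median log2 ratio of the 10 genes was 0.2 with TMM scaling. Of all genes with 50 or more mean counts, 52.8% were lower in pool 1 by TPM. Midbrain markers were at 1 TPM or more in both pools for 3 of 8, with the midbrain dopamine neuron factor Nr4a2 (16.52 TPM in pool 1 and 21.56 TPM in pool 2) and Dmbx1 (11.38 and 7.75 TPM) beside Otx2, and with Tal2 at 0.87 TPM in both pools and the dopamine transporter gene Slc6a3 at 0.04 and 0.03 TPM. Forebrain markers were at that level for 3 of 8 as well, with a median of 0.863 TPM; Lhx2 (24.17 TPM in pool 1 and 23.79 TPM in pool 2) and Neurod6 (13.91 and 17.40 TPM) were highest, and Six3 was at 0.35 and 0.52 TPM. Many of these markers are also expressed in parts of the hindbrain, and the part of adjoining midbrain tissue in the Otx1, En1 and En2 levels was not tested.

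The annotation changed the levels little. The mean TPM on M21 divided by that on the older GENCODE M4 was between 0.942 and 0.983 for the 7 genes, beside a median of 0.952 over 14399 genes, and none of the 7 passed 1.5-fold, against 6.39% of all genes. For 5 of the 7 genes the expected counts were identical on both annotations in both pools.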

How the data were processed

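PolyA-plus RNA-seq of 2 pools of hindbrain, the replicates of 1 group, was analysed. Per the labels' protocols, each library started from 10 ng of mirVana-extracted RNA with ERCC spike-ins, was reverse transcribed from oligo-dT and was fragmented by Nextera tagmentation, and the manual of a low-input amplification kit is cited. No molecular identifiers are named, so intervals cover counting error only. For the program behind the tables and its strand setting, nothing is given in the sources used here. Per the deposited read-me files, gene and transcript tables were made on mm10 with GENCODE M21 and M4.

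Expected counts, as deposited, estimate the reads of each feature, are not scaled for depth, and summed over genes to 31469575 in pool 1 and 29261472 in pool 2 on M21, with spike-ins left out. The deposited TPM values share 1 fixed total over all entries, including 97 spike-ins and 26248 tRNA entries. FPKM values, per the file headers, scale counts by length and library size. The isoform percent in the deposited transcript tables gives each transcript's part of its gene, and the shares reported were computed from transcript TPM. No header states the confidence level of the deposited TPM intervals.

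Rounded to whole numbers, the counts entered edgeR 4.0.16, which gave TMM factors and, with an intercept-only design, a common dispersion whose square root (coefficient of variation) was 0.0858 over 18575 genes. Ratios used a prior count of 0.5, genes with 50 or more mean counts and a 1.5-fold limit. Intervals at 95% were exact Poisson for counts and exact conditional binomial for ratios. Alternative scalings were spike-in totals, total counts and the size factors of DESeq2 1.42.0. Only the 1.5-fold call on TMM-scaled ratios was tested on simulated counts, with larger changes put in. Levels, transcript shares, annotation ratios, intervals and promoter matches were not part of that test. Promoter windows are RefSeq, GRCm38.p6. Scripts ran in R 4.3.3 and in Python 3.11.15 with scipy 1.17.1, numpy 2.4.6, pandas 2.3.3 and matplotlib 3.10.9.

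The 7 genes, the 14 other lists (121 distinct genes) and the rules were chosen with earlier results of these data known, so list counts are descriptions. Each is to be read beside the 61.8% of protein-coding genes at 1 TPM or more in both pools. Named were all 7 genes, their paralogues and nearest neighbours, transcripts with 10% or more of a gene, and of each list the 4 genes of highest mean TPM with up to 2 under 1 TPM in both pools. Prss56 and Fgf8 were added for their roles after their values were seen, and not every gene chosen by the rule is described.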

Additional observations from a re-analysis of the deposited data

How the results depend on the processing

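Counts of members and lists kept within 1.5 times the reported value in 65 comparisons of a result with an alternative and moved further in 5. Some of the 65 could not move and are no check. Examples are a 2-fold limit where 0 genes passed 1.5-fold, and 0.5 TPM for lists already complete at 1 TPM. Scaled to spike-in totals, 1 of the genes, Otx1, passed 1.5-fold between the pools (log2 ratio 0.63), against 0 with TMM scaling. At a threshold of 5 TPM, 8 of 17 family paralogues were counted instead of 13, 3 of 6 skeletal muscle markers instead of 6, and 2 of 7 immediate early genes instead of 6. At 0.5 TPM, 7 of 8 midbrain markers were counted instead of 3. For single genes, 57 values moved by less than their error (the SD over the pools for a level, the counting interval for a ratio) and 13 by more: the 7 mean levels given as FPKM, the Otx1 level as TPM over genes only (2.97), and 5 ratios under spike-in scaling. Of the 57, the 7 levels from pool 1 alone and the 7 from pool 2 alone are no check. With 2 pools, leaving 1 out always moves the mean by less than this SD. The 7 FPKM moves are a change of unit. With pool 2 alone En1 and Sp8 were tied at 6.75 TPM, and the rest of the order held. The log2 ratios of Sp8, En1 and Egr2 changed sign under spike-in scaling, to 0.09, 0.16 and 0.15.

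No paired analysis was possible because the 2 pools are the only samples and form 1 group. With 2 libraries the SD rests on 1 difference. En2 and Egr2 rest on at most 53 counts per pool, so the division among the transcripts of Egr2 is loosely set, and their ratios between the pools have the wide intervals given above. Sharing of reads between Gbx2 and its antisense gene, and between the Cnpy1 transcripts, limits those values whatever the depth.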
